A study of Mus musculus with 6 samples.

Results

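The D-type cyclins, their kinases, a set of cyclin-dependent kinase (CDK) inhibitors and the retinoblastoma family were examined in growth plate cartilage. The 10 genes, Ccnd1, Ccnd2, Ccnd3, Cdk4, Cdk6, Cdkn1b, Cdkn1c, Cdkn2c, Rb1 and Rbl2, were chosen by name, and all 10 were found among the 15803 genes of the deposited table. RNA-seq was run on 6 libraries of growth plate cartilage taken from mouse embryos of E18.5, and the study used embryos of both sexes and compared littermates. The 3 libraries labelled CKO stand for Col2a1-Cre;Hnrnpk fl/fl embryos, which make Cre recombinase from the promoter of the cartilage collagen gene Col2a1 and so delete the loxP-flanked part of Hnrnpk in chondrocytes. The 3 libraries labelled WT stand for Hnrnpk fl/fl embryos, which carry the same floxed alleles without Cre. The labels do not say whether each library came from a separate embryo, so p-values measure only the spread between these libraries.

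The D-type cyclins bind and activate Cdk4 and Cdk6, and the active kinases phosphorylate the pocket proteins Rb1, Rbl1 and Rbl2, which otherwise hold E2F transcription factors and the genes of S phase in check. Cdkn1b (p27) and Cdkn1c (p57) bind cyclin-CDK complexes, while Cdkn2c (p18) binds Cdk4 and Cdk6 themselves. In the growth plate, columns of dividing chondrocytes leave the cell cycle before they enlarge, and both p57 and the pocket proteins are known to take part in that exit.

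Levels are given as CPM, the reads on a gene scaled to the same total in every library. The reads behind them summed to 1379674, 1332542 and 1183743 in WT 1, 2 and 3 and to 1454094, 1385468 and 1153871 in CKO 1, 2 and 3. At this depth 1 read was worth 0.688 to 0.867 CPM. Hnrnpk, the targeted gene, stood at 842, 955 and 944 CPM in WT libraries 1, 2 and 3 and at 759, 950 and 780 CPM in CKO libraries 1, 2 and 3. The values of the genotypes overlapped. The difference on the log2 scale was -0.14 with a 95% interval from -0.47 to 0.18. These values cover the whole gene, including its undeleted exons, and the annotation holds 3 near-identical copies that could share reads with it. The target therefore does not check the labels. Other assays of the study on cartilage of this age found Matn1, Comp and Cnmd lower and p21, the product of Cdkn1a, higher in CKO, and in these libraries each of the 4 genes went the way the labels say. The study measured Matn1, Comp and Cnmd by qPCR as genes lowered in this RNA-seq, so their choice was not independent of these data. Matn1 stood at 6283, 6410 and 7830 CPM in the WT libraries and at 612, 356 and 577 CPM in the CKO libraries, and Comp at 1642, 1253 and 1809 CPM in the WT libraries and at 191, 165 and 193 CPM in the CKO libraries. Pcna, which the study found lower in CKO, overlapped between the genotypes here. So did Sox9, which it also found lower, and Mmp13 and Col10a1, which it found higher. Ihh, which the study found higher as protein, had too few reads here to be tested.

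The libraries within a genotype were not equally alike. Over the 5022 genes averaging 20 CPM or more, log2 levels of CKO 1 and CKO 3 correlated with r = 0.985 across genes (genes are not independent replicates), while those of CKO 2 correlated with r = 0.897 and 0.901 with these libraries. WT 1 and WT 2 correlated with r = 0.980, and WT 3 correlated with r = 0.933 and 0.939 with them. CKO 2 held the lowest level of all 6 libraries for 5 of the 10 genes, compared with 20.3% of all genes tested. The number of all genes called higher, 387, became 692 without CKO 2, but 137 without WT 1, 133 without WT 2 or CKO 1, and 123 without CKO 3. The number called lower, 316, became 606 without CKO 2, and 81, 79, 125 and 108 without WT 1, WT 2, CKO 1 and CKO 3.

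Ccnd1 (cyclin D1) was higher and the inhibitors Cdkn1b and Cdkn1c were lower in the libraries labelled CKO, while the other 7 genes did not pass the test. The test was limma on log2(CPM + 1) over 12155 genes averaging 1 CPM or more, with a threshold of 0.05 on the adjusted p. By this rule 1 of the 10 genes was higher, where 3.18% of all genes tested were, and 2 of the 10 were lower, where 2.60% of all genes tested were. By the criterion of the study (more than 2-fold in either direction, and p under 0.05), 1 gene was higher and 3 were lower. Among all genes tested, 5.30% and 5.10% met it. That criterion was applied to limma's fold change and its p before adjustment, as the study names no test or adjustment for its RNA-seq. All 3 CKO libraries lay above all 3 WT libraries for 1 gene and below them for 4 genes, against 14.5% and 13.2% of all genes tested. The median log2 fold change of the 10 genes was -0.06, beside 0.01 for all genes tested, and changed sign to 0.22 without CKO 2 and to 0.00668 without WT 1. It was -0.15 without WT 3, -0.18 without CKO 1 and -0.20 without CKO 3. Over the 5 members with at least 10 reads in every library it was 0.0143, and over all 10 it was -0.10 with TMM scaling and -0.02 with DESeq2. In bulk tissue, fewer cells of a type and less RNA per cell cannot be told apart.

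**Figure D1:**
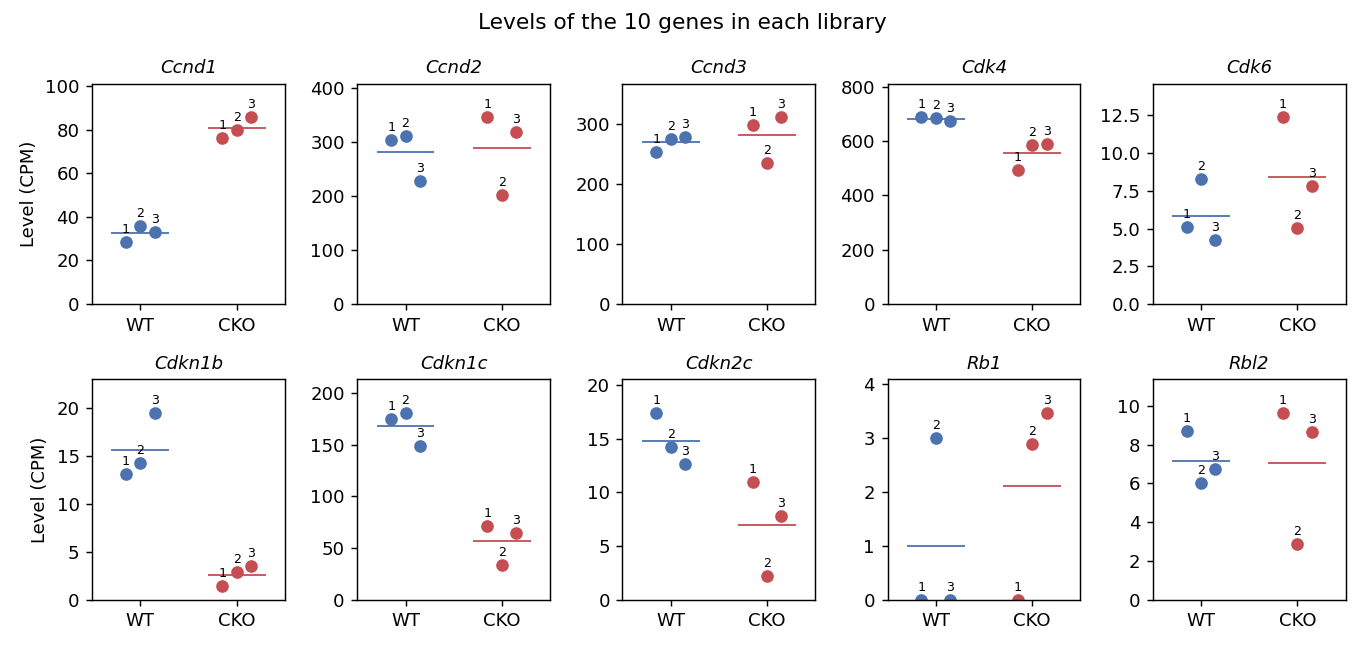
Level of each of the 10 genes in CPM in the 3 WT (blue) and 3 CKO (red) libraries, numbered by replicate, with a line at each mean and each vertical axis starting at 0. Ccnd1 lies between 28.3 and 36.0 CPM in the WT libraries and between 76.3 and 85.8 CPM in the CKO libraries, and the points of Ccnd1, Cdk4, Cdkn1b, Cdkn1c and Cdkn2c do not overlap between genotypes.

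Among the cyclins, Ccnd1 (ENSMUSG00000070348) stood at 28.3, 36.0 and 32.9 CPM in WT libraries 1, 2 and 3 and at 76.3, 80.1 and 85.8 CPM in CKO libraries 1, 2 and 3. Every CKO library was above every WT library, and the libraries of each genotype lay close together. The mean was 32.4 ± 3.90 CPM (SD, n = 3) in WT and 80.8 ± 4.76 CPM in the CKO libraries, 2.49-fold higher. With 126 reads in WT and 321 in CKO, counting error alone gives this ratio a 95% interval from 2.02 to 3.08 (exact binomial method), and such intervals cover counting error only. The log2 fold change was 1.30 (SE 0.19, limma's adjusted p = 0.00505). An exact two-sided permutation test over the libraries gave p = 0.1, the smallest that 3 against 3 allow. The call was kept without each library in turn, with limma's adjusted p between 0.00304 and 0.0372. Ccnd1 lies on chromosome 7 of GRCm38 from 144929931 to 144939925 on the minus strand, and overlaps LTO1 on the other strand. The library kit keeps strand, but the strand setting of the counting is not given in the sources used here. LTO1 itself stood at 33.0 to 36.3 CPM in the WT libraries and at 38.3 to 39.9 CPM in the CKO libraries.

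Ccnd2 and Ccnd3, which encode the other D-type cyclins, were more abundant than Ccnd1 per kb of exon and overlapped between genotypes. Ccnd2 stood at 304, 310 and 227 CPM in WT libraries 1, 2 and 3 and at 345, 201 and 318 CPM in CKO libraries 1, 2 and 3. Ccnd3 stood at 254, 276 and 279 CPM in the WT libraries and at 299, 236 and 312 CPM in the CKO libraries. For both cyclins CKO 2 was the lowest of the 6 libraries and CKO 1 and CKO 3 were the highest, so that the spread within CKO was wider than the difference of the means. The 95% interval of the log2 fold change ran from -0.48 to 0.51 for Ccnd2 and from -0.30 to 0.41 for Ccnd3. Ccnd3 has a near-identical copy, Ccnd3-ps, which could share its reads. Bysl, at 44.9 to 68.4 CPM, overlaps Ccnd3 on the other strand, and antisense genes overlap Ccnd2.

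The make-up of the D-type cyclins, which does not depend on how libraries are scaled, moved with Ccnd1. Its share of the reads per kb of exon on the 3 cyclins was 8.92%, 10.6% and 11.1% in WT 1, 2 and 3 and 18.6%, 26.1% and 20.8% in CKO 1, 2 and 3. The shares did not overlap, and their means were 10.2% ± 1.15 in WT and 21.8% ± 3.83 in CKO (SD, n = 3). The size of the share depends on the length used, and was 4.79% and 10.9% with the longest coding transcript and 5.57% and 12.7% of reads without length scaling, so that the difference of 11.6 percentage points became 6.15 and 7.12. Ccnd3 made up 45.8% ± 4.11 of the cyclin reads per kb in WT and 40.3% ± 1.05 in CKO, and Ccnd2 made up 44.0% ± 5.01 and 37.8% ± 4.79. With the longest coding transcript Ccnd3 made up 70.7% and 66.7%, and Ccnd2 24.5% and 22.4%. Without length scaling Ccnd3 made up 46.5% and 43.6%, and Ccnd2 47.9% and 43.7%. Summed over the 3 cyclins, the level was 67.3, 72.1 and 62.9 CPM per kb in WT and 87.0, 65.2 and 87.6 CPM per kb in CKO. CKO 2 lay within the WT range of this sum, so the genotypes overlapped.

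**Figure D2:**
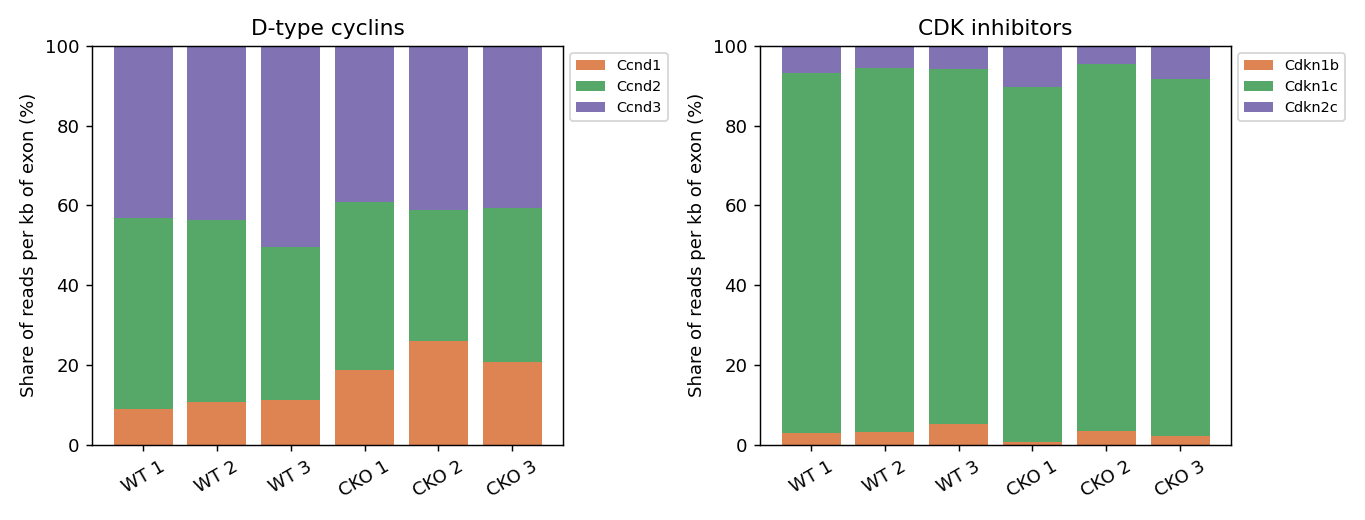
Share of the reads per kb of exon that each gene takes in its family, in percent, for the D-type cyclins (left) and the CDK inhibitors (right) in each of the 6 libraries. Ccnd1 takes between 8.92% and 11.1% of the cyclins in WT and between 18.6% and 26.1% in CKO, while Cdkn1c takes between 88.9% and 92.0% of the inhibitors in every library.

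Cdk4, a catalytic partner of the D-type cyclins, was the most abundant of the 10 genes per length. It stood at 687, 684 and 674 CPM in WT libraries 1, 2 and 3 and at 493, 584 and 590 CPM in CKO libraries 1, 2 and 3. All CKO libraries were below all WT libraries, with CKO 1 the lowest, but the difference did not pass the test. The log2 fold change was -0.30 with a 95% interval from -0.61 to 0.01 (limma's adjusted p = 0.249). Cdk4 overlaps Tspan31 on the other strand, which stood at 9.01 to 13.5 CPM in the WT libraries and 12.3 to 16.5 CPM in the CKO libraries.

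The promoter of Cdk4 is shown because Cdk4 is the gene of this group with the most reads. RefSeq promoters of 300 bases on GRCm38.p6 were matched for 6 of the 10 genes, and the entries of Ccnd1, Ccnd2, Cdkn1c and Rb1 were not used here. Each was searched on both strands for the E-box CACGTG (which reads the same on both), for CCAAT, for the CRE TGACGTCA, and for the E2F sequences TTTCGCGC, TTTGGCGC and TTTCCCGC. The E-box letters were found in 7.15% of all 32851 promoters, CCAAT in 37.4%, the CRE in 1.79% and any E2F sequence in 1.84%. The Cdk4 window, chr10:127063285-127063584 on the plus strand and printed 5′ to 3′, holds the E-box letters 4 times, in capitals here, and none of the others.

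Cdk4: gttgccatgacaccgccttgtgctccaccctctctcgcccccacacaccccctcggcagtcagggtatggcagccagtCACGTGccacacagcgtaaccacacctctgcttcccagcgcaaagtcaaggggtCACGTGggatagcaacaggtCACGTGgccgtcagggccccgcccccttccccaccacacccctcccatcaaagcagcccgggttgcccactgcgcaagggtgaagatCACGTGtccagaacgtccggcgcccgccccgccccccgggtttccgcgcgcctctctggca

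These letters are a description of the window, and nothing was measured at them.

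Cdk6, the other kinase partner, was near the limit of detection. It stood at 5.07, 8.25 and 4.22 CPM in WT libraries 1, 2 and 3 and at 12.4, 5.05 and 7.80 CPM in CKO libraries 1, 2 and 3, on 57 reads in all. The genotypes overlapped, and the 95% interval of the log2 fold change ran from -0.50 to 1.35. The annotation holds 1 near-identical copy of Cdk6, and antisense genes overlap it. Of the reads per kb on both kinases, Cdk4 took between 99.4% and 99.9% in every library.

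Cdkn1b (ENSMUSG00000003031), which encodes p27 and lies on chromosome 6 of GRCm38 from 134920401 to 134925513 on the plus strand, fell to a few reads. It stood at 13.0, 14.3 and 19.4 CPM in WT libraries 1, 2 and 3 and at 1.38, 2.89 and 3.47 CPM in CKO libraries 1, 2 and 3. The CKO values rest on 2, 4 and 4 reads and the WT values on 18, 19 and 23 reads, and no CKO library came near a WT library. The mean level was 6.05-fold lower in CKO, and counting error alone gives the ratio of the summed reads, 60 in WT and 10 in CKO, a 95% interval from 3.12 to 13.5-fold lower. The log2 fold change was -2.24 (SE 0.39, limma's adjusted p = 0.0102), on a scale that understates changes of genes with few reads. Without WT 2 limma's adjusted p was 0.0544 with a log2 fold change of -2.29. Over all alternatives, which include other tests, the adjusted p ran from 0.00561 (DESeq2's Wald test) to 0.0544.

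The promoter of Cdkn1b is shown because it is the one promoter available here of a gene that passed the test. The window, chr6:134920151-134920450 on the plus strand and printed 5′ to 3′, holds CCAAT 3 times when both strands are read (in capitals) and none of the other letters searched for.

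Cdkn1b: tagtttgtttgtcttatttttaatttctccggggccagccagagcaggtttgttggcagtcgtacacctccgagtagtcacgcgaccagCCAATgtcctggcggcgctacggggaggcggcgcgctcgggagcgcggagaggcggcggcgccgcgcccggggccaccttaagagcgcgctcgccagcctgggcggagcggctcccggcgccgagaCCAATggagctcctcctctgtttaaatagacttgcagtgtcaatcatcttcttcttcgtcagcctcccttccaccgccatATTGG

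None of the promoters matched, from 6 genes, held an E2F sequence or the CRE, and no match says only that those letters are not in the window.

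Cdkn1c (ENSMUSG00000037664), which encodes p57 and is expressed from the maternal allele, was the most abundant of the 3 inhibitors per kb of exon. It stood at 175, 181 and 149 CPM in WT libraries 1, 2 and 3 and at 71.5, 33.9 and 65.0 CPM in CKO libraries 1, 2 and 3. All CKO libraries were below all WT libraries, and CKO 2 was the lowest. The mean level was 168 ± 17.2 CPM in the WT libraries and 56.8 ± 20.1 CPM in CKO (SD, n = 3), 2.96-fold lower, and the log2 fold change was -1.61 (SE 0.27). Limma's adjusted p was 0.00788, and it was 0.0517 without WT 1 and 0.0559 without WT 2. Over all alternatives, which include other tests, the adjusted p ran from 9.26e-06 (DESeq2's Wald test) to 0.0559 (limma). The log2 fold change ran from -1.81 to -1.29. Cdkn1c lies on chromosome 7 from 143458339 to 143461050 on the minus strand, 1.47 Mb from Ccnd1, which went the other way. An antisense gene, Gm44732, overlaps it.

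Cdkn2c, which encodes p18, stood at 17.4, 14.3 and 12.7 CPM in WT libraries 1, 2 and 3 and at 11.0, 2.17 and 7.80 CPM in CKO libraries 1, 2 and 3. The genotypes did not overlap, and CKO 2, with 3 reads, was far below the rest. The log2 fold change was -1.17 with a 95% interval from -2.23 to -0.12 (limma's adjusted p = 0.188), which meets the criterion of the study (unadjusted p = 0.0325) but misses the adjusted threshold. Without CKO 2 it was -0.61, and its adjusted p ran from 0.139 to 0.397 over all alternatives. The summed level of the 3 inhibitors was 95.4, 97.1 and 81.9 CPM per kb of exon in WT 1, 2 and 3 and 39.5, 18.1 and 35.5 CPM per kb in CKO 1, 2 and 3, so their sum did not overlap between genotypes. Within that sum the share of Cdkn1c hardly moved, at 90.2% ± 1.14 in WT and 90.2% ± 1.65 in CKO (SD, n = 3). The share of Cdkn1b was 3.81% ± 1.22 in WT and 2.14% ± 1.37 in CKO, and overlapped. That difference, -1.67 percentage points, was -0.976 without WT 3 and -0.988 without CKO 1.

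The values of the pocket protein genes rest on few reads. Rbl2, which encodes p130, stood at 8.70, 6.004 and 6.76 CPM in WT libraries 1, 2 and 3 and at 9.63, 2.89 and 8.67 CPM in CKO libraries 1, 2 and 3. Rb1 was listed at 0 in WT 1, WT 3 and CKO 1, at 3.002 CPM in WT 2, and at 2.89 and 3.47 CPM in CKO 2 and 3, each on 4 reads. A count of 0 allows up to 3 reads, which are 2.17, 2.53 and 2.06 CPM in WT 1, WT 3 and CKO 1. Both genes overlapped between genotypes. Genes on the other strand overlap both, Aktip at 15.9 to 47.1 CPM over Rbl2, and Rcbtb2 at 6.76 to 11.7 CPM and Lpar6 at 2.89 to 10.3 CPM over Rb1. The 95% interval of the log2 fold change was from -1.12 to 0.86 for Rbl2 and from -0.96 to 2.37 for Rb1. Without CKO 2 the log2 fold change of Rbl2 changed sign, to 0.33.

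**Figure D3:**
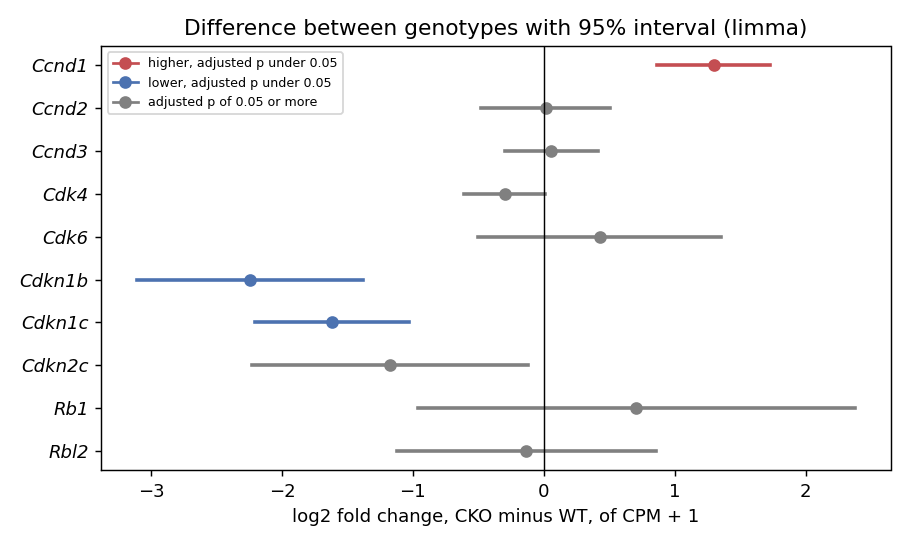
Log2 fold change of each gene, CKO minus WT, of CPM + 1 with its 95% interval from limma. Ccnd1 (1.30) lies above 0 and Cdkn1b (-2.24) and Cdkn1c (-1.61) lie below it with limma's adjusted p under 0.05, and the interval of Rb1 is the widest.

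Per kb of exon, the order of the levels differed between the genotypes. In WT it ran from Cdk4 at 210 CPM per kb and Cdkn1c at 82.5 to Ccnd3 at 30.7, Ccnd2 at 29.8, Ccnd1 at 6.88, Cdkn2c at 5.50, Cdkn1b at 3.42, Rbl2 at 0.946, Cdk6 at 0.418 and Rb1 at 0.166. Neighbours whose libraries overlapped in WT were Ccnd3 and Ccnd2, Ccnd1 and Cdkn2c, and Cdk6 and Rb1. In CKO, Cdk4 at 171 CPM per kb stood first and apart from the rest, followed by Ccnd3, Ccnd2, Cdkn1c and Ccnd1, each overlapping the next. Cdkn1c, 82.5 CPM per kb in WT and above all 3 cyclins there, stood at 27.9 CPM per kb in CKO and overlapped Ccnd2 and Ccnd3 there. Parts of this order depend on the length used. With the longest coding transcript, a comparison chosen after seeing the data, Ccnd3 stood above Cdkn1c in WT, at 128 and 88.5 CPM per kb, and apart from Ccnd2 at 44.3, and Ccnd1 at 8.67 stood apart from Cdkn2c at 5.98. In CKO, Ccnd3 then stood at 134 CPM per kb, apart from Ccnd2 at 45.5 and Cdkn1c at 29.9. Cdk4 was first in both genotypes by either length. Cdkn1b, above Rbl2 and Cdk6 in WT, stood at 0.566 CPM per kb in CKO and overlapped Rb1, Cdk6 and Rbl2 there, with the union of exons as with the longest coding transcript.

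**Figure D4:**
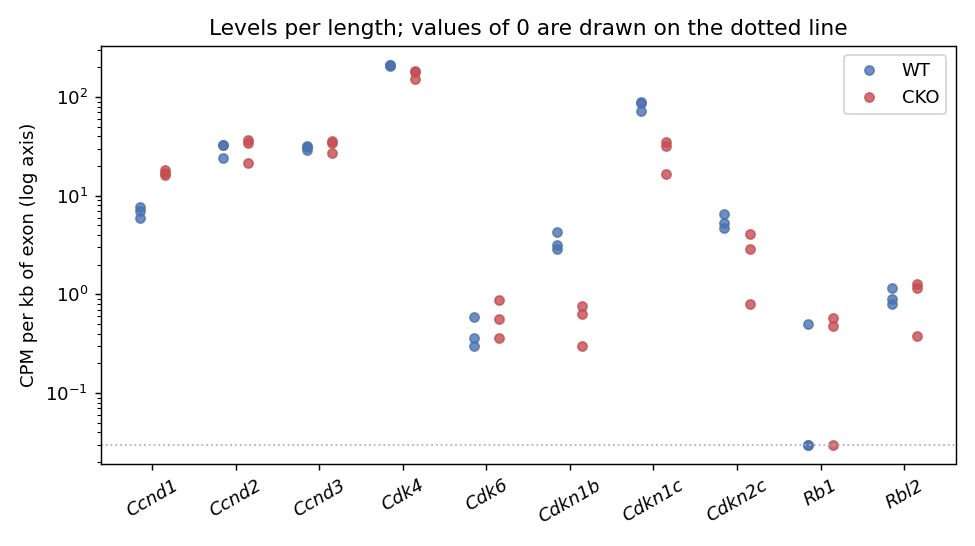
Level of each gene in CPM per kb of exon, on a log axis, in the WT (blue) and CKO (red) libraries. Cdk4 is the highest in both genotypes, and the 3 points of Rb1 listed at 0 are drawn on the dotted line.

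The genes around this pathway were grouped in 6 lists with 83 genes tested. Of these, 6 were higher and 0 were lower with limma's adjusted p under 0.05, where 3.18% and 2.60% of all genes tested were. At an unadjusted p under 0.05, 11 were higher and 2 lower, where 11.2% and 10.1% of all genes tested were. The 0 lower genes were also 0 with edgeR's quasi-likelihood test and with DESeq2. The median log2 fold change of the 83 genes was 0.19, beside 0.01 for all genes tested, with 53 positive and 30 negative. It rested on CKO 2, without which the median was -0.03, with 39 positive and 43 negative. Of the 6, 3 were transcription factors of the AP-1 type (Fos, Junb and Fosl1), which were already known to be high when the list was compiled. Of the 15 tested genes listed as acting on Ccnd1 or Cdkn1b, 3 were higher and 0 lower (median 0.48 on the log2 scale, 0.24 without WT 2).

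Among the transcription factors, Fos rose from 2.17, 2.25 and 1.69 CPM in WT libraries 1, 2 and 3 to 13.8, 13.0 and 11.3 CPM in CKO libraries 1, 2 and 3. Every CKO library was above every WT library, with 8 reads in WT and 51 in CKO (log2 fold change 2.17, limma's adjusted p = 0.00795). Junb was at 42.0, 24.0 and 33.8 CPM in the WT libraries and at 92.8, 70.7 and 87.5 CPM in CKO (log2 fold change 1.33, limma's adjusted p = 0.0121). Fosl1 was at 4.35, 0 and 2.53 CPM in the WT libraries and at 14.4, 65.7 and 20.8 CPM in CKO (log2 fold change 3.40, limma's adjusted p = 0.0190). The CKO libraries of Fosl1 differed widely, with CKO 2 the highest. Junb lost its call without WT 2 (adjusted p = 0.0599), CKO 1 (0.0609) or CKO 3 (0.0640), and Fosl1 lost it without WT 2 (0.0663) or CKO 3 (0.0602), with a pseudocount of 0.1 (0.0667) and with the replicate number as a block (0.0544).

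Among the CDK inhibitors outside the 10 genes, 1 of 4 tested was higher and 0 lower (median -0.13 on the log2 scale). Without CKO 2 this median changed sign, to 0.35, and it was -0.04, -0.06 and -0.09 without WT 1, WT 2 and CKO 3. The one was Cdkn1a, which encodes p21 and responds to p53. It stood at 475, 455 and 251 CPM in WT libraries 1, 2 and 3 and at 1918, 1452 and 1635 CPM in CKO libraries 1, 2 and 3. Every CKO library was above every WT library. Its log2 fold change was 2.13 (SE 0.24, limma's adjusted p = 0.00130).

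Of 22 S phase genes that E2F factors act on, 1 was higher and 0 lower (median 0.28 on the log2 scale, with 17 positive). Without CKO 2 the median was -0.06 and 14 of the 22 were negative, while it was 0.46 without CKO 1 and 0.45 without CKO 3. Rrm2, which encodes a subunit of ribonucleotide reductase, stood at 151, 141 and 114 CPM in WT libraries 1, 2 and 3 and at 336, 617 and 329 CPM in CKO libraries 1, 2 and 3 (log2 fold change 1.597, limma's adjusted p = 0.00532). Pcna, the sliding clamp of DNA polymerase, stood at 88.4, 92.3 and 108 CPM in the WT libraries and at 97.0, 182 and 84.1 CPM in the CKO libraries, with a 95% interval of the log2 fold change from -0.35 to 0.84. CKO 2 was the highest library for both genes. The summed level of the 22 genes was 1102, 1050 and 992 CPM in WT libraries 1, 2 and 3 and 1105, 2308 and 1122 CPM in CKO libraries 1, 2 and 3. CKO 2 alone stood high. Among the CKO libraries, 6 of the 10 members were lowest in CKO 2, compared with 37.6% of all genes tested. They included Ccnd2, Ccnd3 and Cdkn1c, and the sum of the 3 inhibitors was lowest there too. Ccnd1, Cdk4, Cdkn1b and Rb1 were not lowest in CKO 2. The part of this library's make-up in the results was not tested. Without CKO 2, 2 of the pathway genes were lower, Ccna2 (log2 fold change -1.31) and Dut (-1.05), which were picked out once their values were known.

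Of the 14 genes tested in the turnover of p27 and the D-type cyclins, 1 was higher and 0 lower. The median of 0.07 was 0.00284 without CKO 2 and 0.0196 without WT 2, and 0.14, 0.26, 0.16 and 0.17 without WT 1, WT 3, CKO 1 and CKO 3. Skp1 (listed as Skp1a), the adaptor of SCF ubiquitin ligases, stood at 331, 363 and 351 CPM in WT libraries 1, 2 and 3 and at 545, 483 and 537 CPM in CKO libraries 1, 2 and 3. No library overlapped, but its call (limma's adjusted p = 0.0381) was lost without WT 1 (0.149), WT 2 (0.120), WT 3 (0.0550), CKO 1 (0.158) or CKO 3 (0.154), with TMM scaling (0.0547) and with the replicate number as a block (0.0968).

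The list named for the cyclin E and cyclin A kinases also holds Ccnb1, Ccnb2, Cdc25a, Cdk7, Ccnh and Mnat1. That of the pocket protein partners also holds Rbl1, itself a pocket protein, which overlapped between the genotypes. None of the 11 genes tested in the first list and none of the 17 in the second passed in either direction, with medians of 0.16 and 0.11. Without CKO 2 these medians changed sign, to -0.07 and -0.26, and that of the pocket protein partners was also -0.07 without WT 1, and 0.00445, 0.27, 0.17 and 0.05 without WT 2, WT 3, CKO 1 and CKO 3. The second median was also negative with edgeR, at -0.10 over 7 genes, and the first was -0.01 without the filter. The most abundant gene of the first list, Cdk7, was at 166, 163 and 159 CPM in the WT libraries and at 193, 171 and 193 CPM in CKO (95% interval of the log2 fold change from -0.14 to 0.52), with every CKO library above every WT library. The most abundant gene of the second list, Tfdp1, a partner of E2F factors, was at 76.8, 90.1 and 105 CPM in the WT libraries and at 51.6, 75.8 and 71.9 CPM in CKO (95% interval from -0.92 to 0.02), with every CKO library below every WT library.

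**Figure D5:**
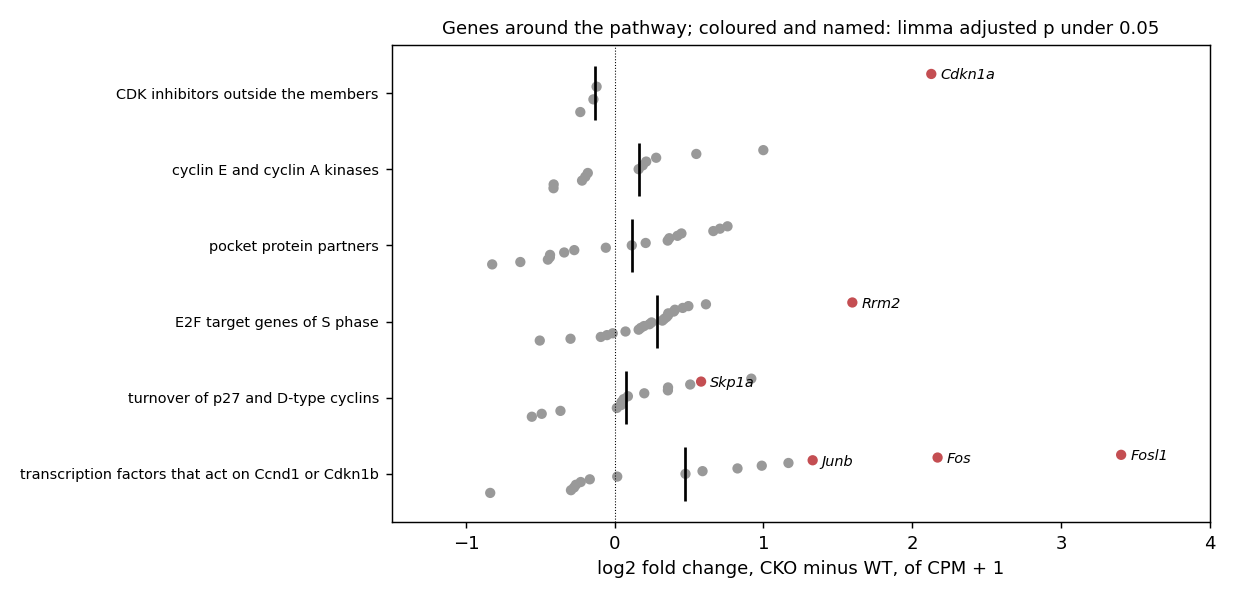
Log2 fold change, CKO minus WT, of CPM + 1 for each tested gene of the 6 lists, with a black bar at each list's median. The 6 named red points passed with limma's adjusted p under 0.05, all of them above 0, and the median of the S phase list is 0.28 but -0.06 without CKO 2.

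Most marker genes of the cartilage itself were lower in the CKO libraries. The marker counts stand beside 3.18% higher and 2.60% lower among all genes tested by limma's adjusted p, and beside 5.30% and 5.10% by the criterion of the study. Of the 8 chondrocyte markers, 6 were lower and 0 higher, and their summed level was 23099, 23712 and 27635 CPM in WT libraries 1, 2 and 3 and 5357, 5209 and 5326 CPM in CKO libraries 1, 2 and 3. The most abundant was Cnmd, at 9498, 9533 and 9818 CPM in the WT libraries and 1804, 1042 and 1799 CPM in the CKO libraries. Col2a1 was at 2720, 3133 and 3944 CPM in the WT libraries and 1411, 1950 and 1427 CPM in the CKO libraries, and Acan at 482, 477 and 746 CPM in the WT libraries and 186, 276 and 147 CPM in the CKO libraries. The transcription factor Sox9 was at 68.1, 81.8 and 102 CPM in the WT libraries and at 42.0, 73.6 and 32.1 CPM in the CKO libraries. Hapln1 was at 847, 966 and 1189 CPM in the WT libraries and at 837, 891 and 869 CPM in the CKO libraries. Sox9 and Hapln1 overlapped between the genotypes and did not pass the test. All 8 chondrocyte markers were detected in every library.

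Markers of enlarged chondrocytes and of bone changed only in part. Of 5 tested hypertrophic markers, 1 was higher and 0 lower, and their list summed to 1466, 1478 and 4591 CPM in WT libraries 1, 2 and 3 and to 14042, 12392 and 15208 CPM in CKO libraries 1, 2 and 3, mostly from Spp1 at 1037, 1095 and 3769 CPM in the WT libraries and 11114, 11877 and 12045 CPM in the CKO libraries. By the criterion of the study 3 of the 5 were higher, and all 5 log2 fold changes were positive (median 1.78), but 4 of 5 without WT 3 or without any one CKO library. The 3 were Spp1, Mmp13, at 257, 260 and 650 CPM in the WT libraries and 2155, 377 and 2301 CPM in the CKO libraries, and Ibsp, at 129, 82.5 and 109 CPM in the WT libraries and 708, 83.0 and 808 CPM in the CKO libraries. For both, CKO 2 lay within the WT range. Ihh, another of these markers, had no reads in 4 libraries. Col10a1, the collagen that defines these cells, was at 13.0, 15.8 and 43.9 CPM in the WT libraries and 24.8, 45.5 and 16.5 CPM in the CKO libraries, and overlapped. None of 5 osteoblast markers passed the adjusted threshold, while 4 of the log2 fold changes were positive and 1 negative (median 0.94, but 0.59 without CKO 1 and 0.50 without CKO 3), with sums of 328, 438 and 582 CPM in the WT libraries and 567, 284 and 562 CPM in the CKO libraries, and the most abundant was Col1a1, at 270, 359 and 541 CPM in the WT libraries and 245, 240 and 269 CPM in the CKO libraries. Col1a1 was the one with a negative change, and Bglap2, the one higher by the criterion of the study, was at 50.7, 69.0 and 30.4 CPM in the WT libraries and 290, 35.4 and 257 CPM in the CKO libraries. Neither of 2 osteoclast markers passed, with sums between 89.9 and 115 CPM, mostly from Ctsk at 81.9 to 108 CPM. The other, Acp5, was higher by the criterion of the study, at 2.17, 0.750 and 9.29 CPM in the WT libraries and 12.4, 7.94 and 9.53 CPM in the CKO libraries, and CKO 2 lay below WT 3. Of 6 fibroblast and perichondrium markers, 2 were lower and 0 higher, with sums of 3211, 3800 and 5055 CPM in the WT libraries and 2130, 1189 and 2074 CPM in the CKO libraries, and Col3a1 the most abundant.

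Of 4 macrophage markers tested, 1 was higher, Cd68, at 8.70, 6.75 and 11.8 CPM in the WT libraries and 76.3, 46.9 and 76.3 CPM in the CKO libraries, and the list summed to 9.01 to 23.7 CPM in the WT libraries and 64.2 to 83.2 CPM in the CKO libraries. Without Cd68 the list summed to 2.17, 2.25 and 11.8 CPM in the WT libraries and 4.13, 17.3 and 6.93 CPM in the CKO libraries, which overlapped. Csf1r, Adgre1 and C1qa overlapped between the genotypes and did not pass, and Mrc1 had no reads in the CKO libraries and was not tested. Skeletal muscle markers summed to 23.9, 16.5 and 81.1 CPM in the WT libraries and 53.6, 219 and 57.2 CPM in the CKO libraries, with 0 of 4 called, and Myog reached 179 CPM in CKO 2. By the criterion of the study 1 of the 4 was higher, Tnnt3, at 11.6, 9.01 and 32.1 CPM in the WT libraries and 30.3, 30.3 and 39.9 CPM in the CKO libraries, which overlapped. Endothelial markers summed to at most 3.38 CPM and erythroid markers to at most 3.47 CPM in any library, with 0 and 1 of them tested, and Emcn and Hba-a1 were the most abundant of these. The epithelial list held Klk10 and Sbsn because earlier results had shown them high in CKO, so their call is no independent result, and Klk10 stood at 27.5, 23.3 and 27.9 CPM in the WT libraries and 289, 830 and 291 CPM in the CKO libraries. The list summed to 30.4, 24.8 and 31.3 CPM in the WT libraries and 373, 851 and 365 CPM in the CKO libraries, and its defining marker Epcam was listed at 0 in 4 libraries. For the members above, the part of these markers in the result was not tested.

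Across the 6 libraries, the genes most like the 3 most abundant members were sought among those with a mean of at least 20 CPM. By Pearson's r of log2(CPM + 1) over 6 libraries, Cdk4 was most like Nenf (r = 0.990), Tsen34 (0.977) and Ppp1r35 (0.976), Ccnd2 was most like Pdp1 (0.998), Hsd17b4 (0.995) and Txndc12 (0.992), and the genes most like Ccnd3 included Commd5 (0.993) and Fuca2 (0.990). The genes named for Ccnd2 and Ccnd3 share with them a lowest value in CKO 2, at 11.5 CPM for Pdp1 and 31.8 CPM for Commd5. With so many genes searched over 6 libraries, some high values are found for any gene, and they are a description.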

How the data were processed

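Poly(A) RNA of 6 libraries was measured with a stranded kit. For every gene, the authors deposited CPM by library. The submitters' processing notes name cutadapt 2.5, featureCounts 1.6.3 and HISAT2 without a version; the genome build and annotation are not given in the sources used here. All values (100%) were whole multiples of 1 read within 0.01 reads, so reads were recovered. Genes were matched by symbol, and length and position came from GENCODE release M21 on GRCm38. With limma 3.58.1 in R 4.3.3, log2(CPM + 1) of 12155 genes averaging 1 CPM or more was fitted on genotype, with Benjamini-Hochberg adjustment. On the recovered reads, edgeR 4.0.16 called 374 genes higher and 363 lower among 7704, and DESeq2 1.42.0 called 344 and 305. The fits were tested on simulated data. Near-identical copies were searched with BLAST 2.17.0. Named genes were the 10 members, Hnrnpk, up to 6 called genes of each pathway list (or its most abundant gene), Pcna and Cdkn1a, the markers Col2a1, Acan, Sox9 and Col10a1, the most abundant gene of each marker list, and up to 3 of the most similar genes for each of the 3 members with the highest mean CPM. Genes that overlap members are named from the annotation, and some list genes are named to say what a list holds. Matn1, Comp, Hapln1, Ihh, Mmp13, Ibsp, Bglap2, Acp5, Csf1r, Adgre1, C1qa, Mrc1, Tnnt3, Sbsn and Epcam were chosen after their values were seen. Members and lists were chosen with earlier results of these data known. Alternatives changed the pseudocount, filter, scaling, test, threshold, replicate block and libraries. Some listed markers (of osteoclasts, endothelium, erythroid and epithelial cells) were not analysed here.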

Additional observations from a re-analysis of the deposited data

How the results depend on the processing

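Of 164 alternative values of the 10 log2 fold changes, 151 kept their direction and side of the threshold. With another filter or threshold, or the replicate block, the log2 fold change is the same by construction. Only the side of the threshold could change there. Ccnd1 was called under all 17 alternatives to the main analysis, so 1 member was higher in each. With at least 10 reads in every library, 5 of the 10 members could be tested, and 1 was lower, since Cdkn1b had too few reads. Of all 6021 genes tested with that filter, 347 were higher and 272 lower. At an adjusted p under 0.01, 1 member was lower (Cdkn1c) and 3 pathway genes were higher, beside 114 higher and 71 lower of all 12155 genes. Without single libraries, members called lower ranged from 0 to 2, pathway genes called higher from 3 to 6, and pathway genes called lower from 0 to 2. Among all genes tested, those called higher then ranged from 123 to 692 and those called lower from 79 to 606. The log2 fold change of Ccnd2 was -0.0309 with TMM scaling, -0.0131 with RLE scaling and -0.00722 with edgeR, and ranged from -0.14 to 0.25 without single libraries, that of Ccnd3 from -0.0206 to 0.18 and that of Rbl2 from -0.40 to 0.33. None of these passed the threshold. The share of Ccnd1 among the cyclins differed by 11.6 percentage points per kb of exon, by 7.12 without length scaling and by 6.15 with the longest coding transcript. That of Cdk4 differed by -0.688 and that of Cdkn1b by -3.43 without length scaling, beside -0.163 and -1.67. Without single libraries the difference of Cdk4 ranged from -0.244 (without CKO 2) to -0.0547 (without CKO 1). The lengths of the genes differ, which changes shares by construction, and the cause of the other changes was not tested.

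The replicate block left 1 member higher and 2 lower, and 4 pathway genes higher (Skp1a and Fosl1 lost their calls), with 225 genes higher and 160 lower of all tested, beside 387 and 316. Correlations between WT and CKO libraries of their deviations from the genotype mean were 0.0608, -0.227 and -0.159 for numbers 1, 2 and 3. For libraries of unlike number they ran from -0.182 to 0.221. With 3 libraries per genotype, these values cannot say whether the numbers pair littermates. At the mean number of reads of the CKO libraries, counting error alone gives 1 library a coefficient of variation of 61.2% for Rb1, 54.8% for Cdkn1b, 32.7% for Cdkn2c and for Rbl2, 29.7% for Cdk6, and 11.5% or less for the other 5 members.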
